A study of Mus musculus with 30 samples.

Results

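The genes described here encode the proteins that fold, oxidise and quality-control newly made polypeptides in the endoplasmic reticulum (ER). They are 41 genes, chosen by name from the biology of the secretory pathway, out of 19937 genes with a probe set of a single symbol on the array. The choice was made with earlier results of these data known, so the counts below describe these genes and do not test the choice. By role they fall into 6 groups: 12 members of the ER HSP70/HSP90 chaperone system, 2 lectin chaperones, 9 genes of disulfide formation, 4 prolyl isomerases, 2 genes of ER shape or of the UFM1 modifier, and 12 genes of ER-associated degradation (ERAD). Older symbols are used here for 3 of them: Ero1l, Ero1lb and Vimp stand in the array's annotation as Ero1a, Ero1b and Selenos.

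The samples were B-lineage cells sorted from the mesenteric lymph nodes of CeGFP BALB/c mice on day 10 after infection with Nippostrongylus brasiliensis, a nematode that elicits strong IgE responses. All the mice, and therefore all the groups, carried an IRES-GFP cassette in the 3′ UTR of the Cepsilon gene, so GFP marks IgE cells and also IgG1 cells that rearranged to Cepsilon on the non-productive chromosome. In the first experiment the groups were GFP+ IgE plasma cells (PC, CD95+CD138+; 4 arrays), GFP+ IgG1 PC (2 arrays), GFP+ IgE germinal centre (GC) cells (B220+CD95+CD138-; 3 arrays), GFP+ IgG1 GC cells (3 arrays), GFP- IgG1 GC cells (3 arrays) and naive B cells (B220+CD95-CD138-IgG1-IgE-; 3 arrays). In the second experiment IgG1 GC cells were sorted into dark zone (DZ, CXCR4highCD86low) and light zone (LZ, CXCR4lowCD86high) cells, each GFP+ or GFP-, with 3 arrays in each of the 4 groups. Each sample pooled cells from 3 mice, came from a sort of its own and started from 2 ng of RNA that was amplified before hybridisation. The PC gate takes any CD95+CD138+ cell of the isotype and does not separate cycling plasmablasts from resting PC, and no uninfected mice are among these samples.

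Antibody chains enter the ER as they are made, and the HSP70-type chaperone BiP (Hspa5) holds unassembled heavy chains until light chains displace it. Protein disulfide isomerases, re-oxidised by Ero1 oxidases, close the disulfide bonds of each domain, and lectin chaperones with the isomerase Pdia3 handle chains that carry N-glycans. Chains that fail to fold have their mannoses trimmed, are recognised by lectins and leave through the ligase complex built on Sel1l and Syvn1 for destruction by the proteasome. Many genes of this machinery are targets of the unfolded protein response, whose factors ATF6 and XBP1 bind the elements ERSE, ERSE-II and UPRE, and Xbp1 is needed for full secretion by plasma cells.

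Promoter windows, running from 250 bases before to 50 bases after the annotated start (RefSeq, GRCm38.p6), were given for 35 of the 41 members. They are shown because the members were set beside one another as one module, and these elements are letters that some of them share and others do not. A gene with several windows was counted once. ERSE (CCAAT, then 9 bases of any kind, then CCACG), searched on both strands, was in 10 of the 35 members (28.6%). Over all genes with a window it was in 37 of 27025 (0.137%). ERSE-II (ATTGG, 1 base of any kind, then CCACG) was in 2 members (5.71%) against 0.0444% of all genes. The UPRE core (TGACGTG) was in 4 (11.4%) against 2.22%. Among protein-coding genes alone the shares were 0.166% for ERSE, 0.0629% for ERSE-II and 2.49% for the UPRE core. The members were chosen by name, from a machinery already known to hold many targets of the factors that bind these elements. A higher share among them was therefore built into the choice, and the shares describe the members without testing an enrichment. Of the members with a window, 15 had at least 1 of the 3 elements and 20 had none. The sequences below read 5′ to 3′ on the strand of the gene, with the letters of the element in capitals. An element that lies on the opposite strand appears as its reverse complement, as in Calr, Creld2, Derl3, Ero1lb, Fkbp11 and the first Hsp90b1 site.
Hspa5, ERSE (chr2:34772020-34772048, + strand): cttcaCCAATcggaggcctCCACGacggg
Hsp90b1, ERSE (chr10:86705528-86705556, - strand): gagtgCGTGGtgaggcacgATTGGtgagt
Hsp90b1, ERSE (chr10:86705633-86705661, - strand): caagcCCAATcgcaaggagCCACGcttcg
Calr, ERSE (chr8:84847070-84847098, - strand): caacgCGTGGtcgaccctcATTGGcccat
Canx, ERSE (chr11:50325795-50325823, - strand): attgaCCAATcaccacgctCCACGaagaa
Creld2, ERSE (chr15:88819515-88819543, + strand): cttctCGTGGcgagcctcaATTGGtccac
Derl3, ERSE (chr10:75893237-75893265, + strand): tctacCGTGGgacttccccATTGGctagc
Dnajc3, ERSE (chr14:118937822-118937850, + strand): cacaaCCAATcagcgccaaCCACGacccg
Ero1lb, ERSE (chr13:12565677-12565705, + strand): ggcctCGTGGtcccgcctcATTGGccgcc
Pdia6, ERSE (chr12:17266486-17266514, + strand): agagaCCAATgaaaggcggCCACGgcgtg
Syvn1, ERSE (chr19:6046527-6046555, + strand): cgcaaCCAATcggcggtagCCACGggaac
Dnajb11, ERSE-II (chr16:22857847-22857867, + strand): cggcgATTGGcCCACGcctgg
Herpud1, ERSE-II (chr8:94386372-94386392, + strand): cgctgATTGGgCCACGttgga
Fkbp11, UPRE core (chr15:98727616-98727632, - strand): tgaaaCACGTCAgcttt
Txndc5, UPRE core (chr13:38528041-38528057, - strand): gccgcTGACGTGgcgct
The windows of Hspa5 and Txndc11 held the UPRE core as well, in Txndc11 at 2 places. A match of letters is a description of the window and not a measured binding site. The parts of these elements are common on their own: CCACG was in 94.3% of members and 35.5% of all genes with a window, and CCAAT in 80% and 41.1%.

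All values below are RMA values on the log2 scale, as deposited; a difference of 1 is a doubling of signal. Groups were compared with limma across all arrays of an experiment, a gene is called where its Benjamini-Hochberg adjusted p over all genes tested is below 0.05, and errors beside differences are standard errors (SE). Of the 41 members, 39 passed the filter on dim probe sets in experiment 1, and 38 did so in experiment 2. Pdia5, a disulfide isomerase, and Fkbp14, a prolyl isomerase, passed in neither, and Fkbp11 did not pass in experiment 2. Every tested member but Fkbp11 was above its array's median on at least 11 of the 12 arrays that held no PC, so few members entered through the PC alone. The sorted identities were checked on marker genes: the summed linear signal of 7 plasma cell markers was 14273 to 16382 in IgE PC and 12764 to 14857 in IgG1 PC, against 3040 to 5682 in the 3 GC groups and 1131 to 1422 in naive cells. In these bulk samples fewer cells of a type and less RNA per cell cannot be told apart, which holds for every difference below. Naive replicate 1 and GFP+ IgG1 GC replicate 3 stood apart from the other arrays of their groups, and levels were not set across the 2 experiments.

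**Figure D1:**
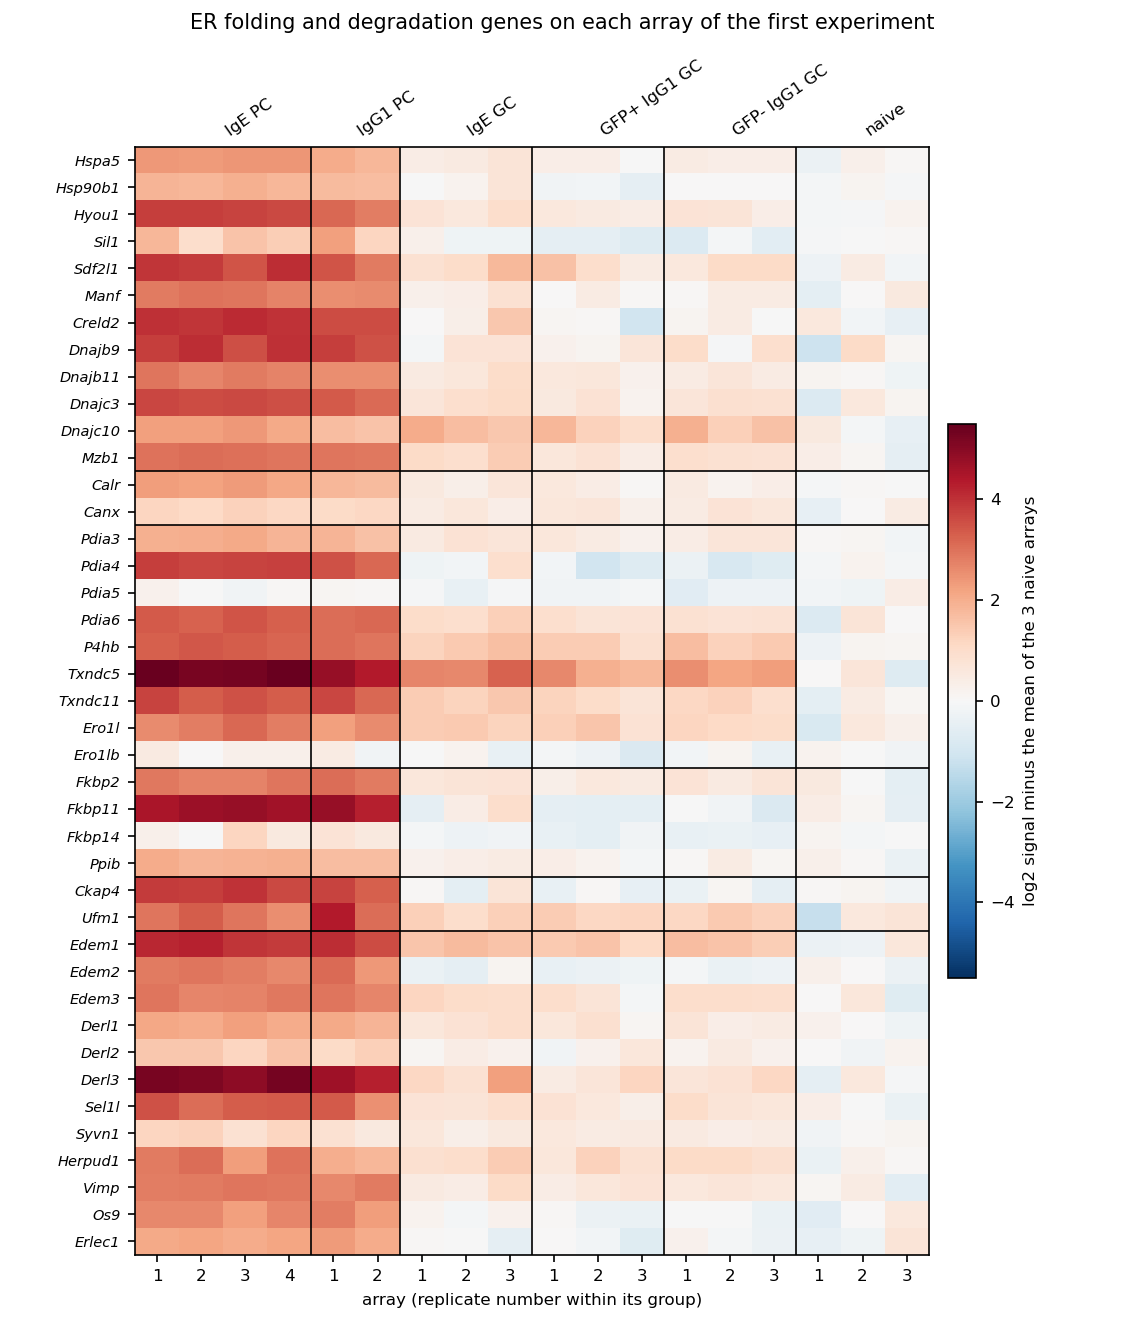
Heat map of the 41 members (rows, by role) on the 18 arrays of the first experiment (columns, by group), coloured by the log2 RMA value minus the mean of the 3 naive arrays. The PC columns stand above the GC columns in nearly every row, and the PC and GC values overlap in the rows of Dnajc10, Ero1lb, Pdia5 and Syvn1.

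The first question was how the machinery differed between PC and the GC cells of the same isotype. In IgE PC 37 of the 39 tested members were higher than in IgE GC cells and none was lower, against 10.2% of the 12098 genes tested that were called higher; the members' median difference was 2.10, against -0.03 over all genes tested. In IgG1 PC 35 of 39 were higher than in GFP+ IgG1 GC cells and none was lower, against 8.32% of genes called higher, with a median of 2.30 against -0.01. For 38 of the 39 tested members every IgE PC array lay above every IgE GC array (15.2% of all genes tested). For IgG1 this was so for 36 of 39 (20.7% of all genes tested). The 2 comparisons use different arrays but are estimated with a common variance, and with 2 to 4 arrays a group the p-values rest on the spread between pooled sorts.

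**Figure D2:**
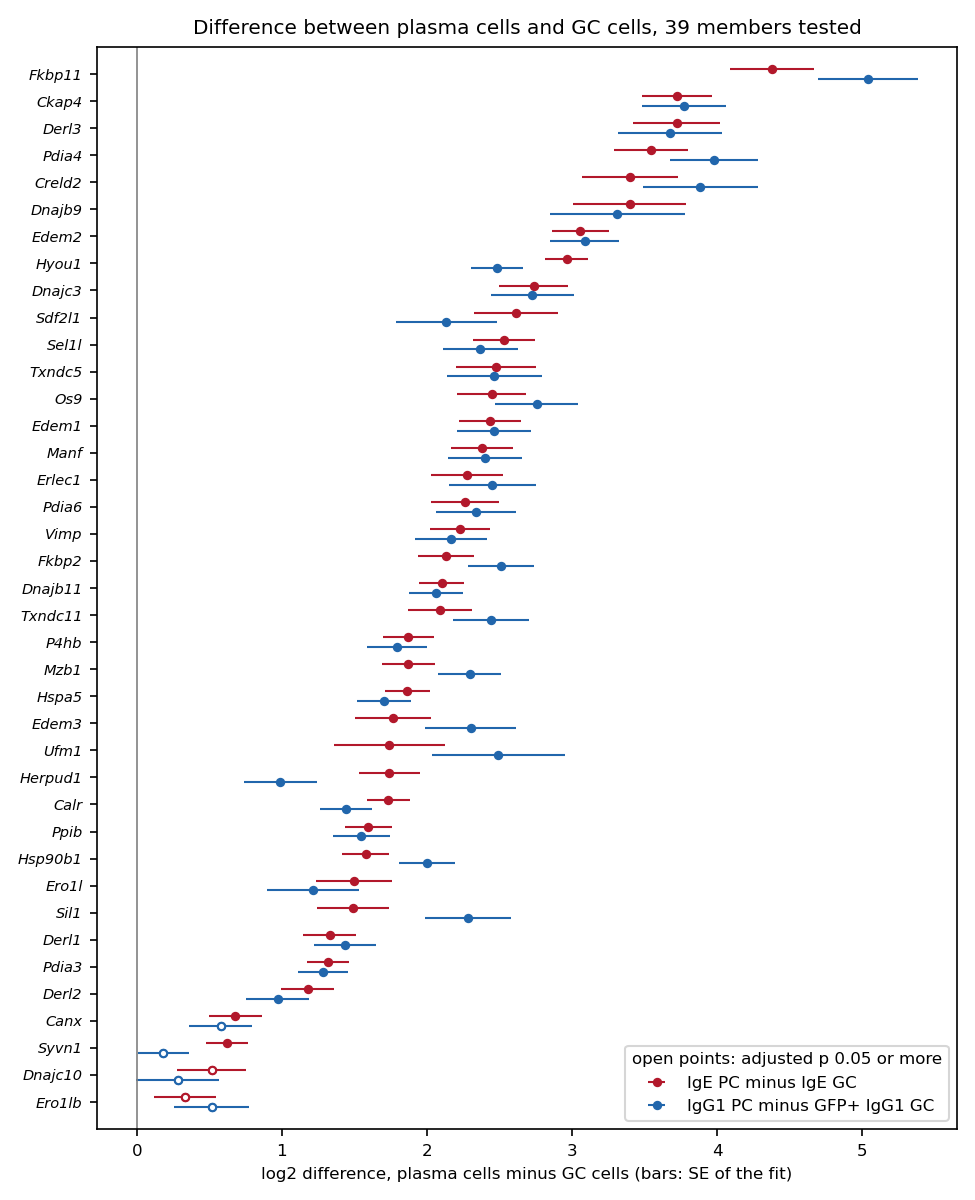
PC minus GC difference in log2 RMA value for each tested member, in IgE cells (IgE PC minus IgE GC) and in IgG1 cells (IgG1 PC minus GFP+ IgG1 GC), with bars of 1 SE; filled points were called and open points were not. Fkbp11 stands furthest from 0 in both isotypes, and Ero1lb and Dnajc10 have open points in both isotypes.

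Among the chaperones of the HSP70/HSP90 system, 11 of 12 were higher in PC in each isotype, with medians of 2.24 for IgE and 2.29 for IgG1. Hspa5, the HSP70 of the ER, had values of 12.43, 12.41, 12.49 and 12.50 in IgE PC, 12.12 and 11.89 in IgG1 PC, 10.46, 10.56 and 10.77 in IgE GC cells, 10.41, 10.44 and 10.06 in GFP+ IgG1 GC cells, and 9.75, 10.32 and 10.11 in naive cells. Every PC array was above every GC and naive array, and the PC minus GC difference was 1.86 (SE 0.15, adjusted p = 1.35e-07) for IgE and 1.70 (SE 0.18, adjusted p = 3.37e-06) for IgG1. Hsp90b1 (GRP94), the HSP90 of the ER, had values of 12.91, 12.85, 12.97 and 12.87 in IgE PC, 12.77 and 12.75 in IgG1 PC, 11.02, 11.20 and 11.75 in IgE GC cells, 10.86, 10.87 and 10.54 in GFP+ IgG1 GC cells, and 10.92, 11.20 and 10.98 in naive cells. Its PC minus GC differences were 1.58 ± 0.16 for IgE and 2.00 ± 0.19 for IgG1, and the PC values again lay above all others. Mzb1, a cochaperone made in B-lineage cells that helps assemble immunoglobulin, had values of 13.06, 13.16, 13.12 and 13.04 in IgE PC, 13.04 and 12.98 in IgG1 PC, 11.14, 11.04 and 11.51 in IgE GC cells, 10.73, 10.91 and 10.51 in GFP+ IgG1 GC cells, and 10.46, 10.21 and 9.61 in naive cells. The PC values were higher by 1.87 ± 0.18 for IgE and 2.29 ± 0.22 for IgG1, and each GC array also stood above each naive array.

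The widest differences in this role group belonged to Creld2, an ER stress-inducible protein, and Dnajb9, one of the J-domain cochaperones that set the ATPase cycle of BiP. Creld2 had values of 11.57, 11.49, 11.64 and 11.53 in IgE PC, 11.14 and 11.15 in IgG1 PC, 7.57, 7.89 and 9.02 in IgE GC cells, 7.67, 7.63 and 6.49 in GFP+ IgG1 GC cells, and 8.15, 7.41 and 7.11 in naive cells. It was higher in PC by 3.40 ± 0.33 for IgE, the 42nd highest difference of 12098 genes, and by 3.88 ± 0.40 for IgG1, the 27th. Dnajb9 had values of 11.17, 11.41, 10.90 and 11.38 in IgE PC, 11.18 and 10.87 in IgG1 PC, 7.25, 8.10 and 8.11 in IgE GC cells, 7.60, 7.52 and 8.01 in GFP+ IgG1 GC cells, and 6.23, 8.41 and 7.45 in naive cells, with PC minus GC differences of 3.40 ± 0.39 for IgE and 3.31 ± 0.46 for IgG1. The PC and GC values of Dnajb9 were separated by a wide gap, and its GC and naive values overlapped. Dnajc3 was higher in PC by 2.73 for IgE and 2.73 for IgG1, and Dnajb11 by 2.10 for IgE and 2.06 for IgG1. The partner of Dnajb11, Sdf2l1, was higher by 2.61 for IgE and 2.13 for IgG1.

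Both nucleotide exchange factors of BiP were higher in PC. Hyou1 (GRP170) had values of 11.10, 11.08, 11.00 and 10.93 in IgE PC, 10.43 and 10.09 in IgG1 PC, 8.05, 7.88 and 8.27 in IgE GC cells, 7.87, 7.76 and 7.69 in GFP+ IgG1 GC cells, and 7.19, 7.21 and 7.46 in naive cells. PC exceeded GC cells by 2.96 ± 0.15 for IgE and 2.48 ± 0.18 for IgG1, with no overlap, and every GC value lay above every naive value. Sil1, the other exchange factor, was higher by 1.49 for IgE and 2.28 for IgG1, and Manf, a secreted BiP-binding protein, by 2.38 for IgE and 2.40 for IgG1. The member that was not called was Dnajc10 (ERdj5), a J-domain protein with reductase activity that opens disulfides of ERAD clients. Dnajc10 had values of 9.61, 9.62, 9.76 and 9.43 in IgE PC, 9.04 and 8.94 in IgG1 PC, 9.39, 9.05 and 8.83 in IgE GC cells, 9.18, 8.63 and 8.33 in GFP+ IgG1 GC cells, and 7.89, 7.27 and 6.91 in naive cells. Its PC minus GC difference was 0.52 (SE 0.24, adjusted p = 0.144) for IgE, called when only the 2 groups were fitted (adjusted p = 0.0461), and 0.28 (SE 0.29, adjusted p = 0.543) for IgG1; the GC values were already well above the naive ones.

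The lectin chaperones had the smallest differences of the role groups, with medians of 1.21 for IgE and 1.01 for IgG1. Calr, the soluble calreticulin, was higher in PC by 1.73 ± 0.15 for IgE and 1.44 ± 0.18 for IgG1. Canx, its membrane-bound relative calnexin, had values of 11.09, 11.02, 11.16 and 11.05 in IgE PC, 10.97 and 11.05 in IgG1 PC, 10.38, 10.55 and 10.29 in IgE GC cells, 10.52, 10.58 and 10.20 in GFP+ IgG1 GC cells, and 9.44, 9.91 and 10.37 in naive cells. The difference for Canx was 0.68 (SE 0.18, adjusted p = 0.0102) for IgE, which was called, and 0.58 (SE 0.22, adjusted p = 0.0678) for IgG1, which was not.

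Of the genes of disulfide formation, 7 of the 8 tested were higher in PC in each isotype, with medians of 1.98 for IgE and 2.07 for IgG1. Pdia4 (ERp72), an isomerase found in complexes with BiP, had values of 12.27, 12.11, 12.15 and 12.19 in IgE PC, 11.96 and 11.62 in IgG1 PC, 8.23, 8.31 and 9.36 in IgE GC cells, 8.30, 7.40 and 7.73 in GFP+ IgG1 GC cells, and 8.35, 8.66 and 8.34 in naive cells. The PC minus GC difference of 3.54 ± 0.25 for IgE ranked 35th of 12098 genes, and that of 3.98 ± 0.30 for IgG1 ranked 24th. Every IgE and GFP+ IgG1 GC value of Pdia4 was below every naive value, except in IgE GC replicate 3. Txndc5, a thioredoxin-domain isomerase abundant in plasma cells, had values of 12.48, 12.25, 12.30 and 12.49 in IgE PC, 11.84 and 11.42 in IgG1 PC, 9.74, 9.68 and 10.29 in IgE GC cells, 9.67, 9.01 and 8.81 in GFP+ IgG1 GC cells, and 7.07, 7.71 and 6.33 in naive cells. It was higher in PC by 2.47 ± 0.27 for IgE and 2.46 ± 0.33 for IgG1, and unlike Pdia4 it had GC values far above the naive ones.

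The more widely expressed isomerases differed less: P4hb (PDI) by 1.87 for IgE and 1.80 for IgG1, Pdia6 by 2.26 for IgE and 2.34 for IgG1, and Pdia3 (ERp57), the partner of the lectin chaperones, by 1.32 for IgE and 1.28 for IgG1. Txndc11, a thioredoxin-domain protein of the ER membrane, differed by 2.09 for IgE and 2.44 for IgG1. The Ero1 oxidases re-oxidise the isomerases. Ero1l averaged 9.58 ± 0.22 in IgE PC (SD, 4 arrays), 9.17 ± 0.24 in IgG1 PC (2 arrays), 8.09 ± 0.12 in IgE GC cells, 7.95 ± 0.37 in GFP+ IgG1 GC cells and 6.74 ± 0.75 in naive cells (3 arrays each), and was higher in PC by 1.50 ± 0.26 for IgE and 1.21 ± 0.32 for IgG1. Ero1lb had values of 10.36, 9.88, 10.14 and 10.17 in IgE PC, 10.33 and 9.68 in IgG1 PC, 9.86, 10.07 and 9.48 in IgE GC cells, 9.77, 9.61 and 9.09 in GFP+ IgG1 GC cells, and 10.09, 9.87 and 9.68 in naive cells. The groups of Ero1lb overlapped, its differences of 0.33 (SE 0.22, adjusted p = 0.328) for IgE and 0.52 (SE 0.26, adjusted p = 0.18) for IgG1 were not called, and its window holds an ERSE. The 95% intervals of those Ero1lb differences were -0.12 to 0.79 for IgE and -0.03 to 1.06 for IgG1.

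All 3 tested prolyl isomerases, enzymes that turn the peptide bond before proline, were higher in PC in both isotypes. Fkbp11 had values of 9.91, 10.12, 10.22 and 10.04 in IgE PC, 10.21 and 9.67 in IgG1 PC, 4.91, 5.82 and 6.35 in IgE GC cells, 4.92, 4.89 and 4.89 in GFP+ IgG1 GC cells, and 5.81, 5.51 and 4.91 in naive cells. It had the largest PC minus GC difference of the members, 4.38 ± 0.29 for IgE (10th of 12098 genes) and 5.04 ± 0.34 for IgG1 (5th), and its GC and naive values lay near the median of their arrays. Fkbp2 differed by 2.13 for IgE and 2.51 for IgG1, and Ppib, cyclophilin B, by 1.60 for IgE and 1.55 for IgG1. The untested Fkbp14 had values of 4.78, 4.47, 5.69 and 5.05 in IgE PC, 5.25 and 5.02 in IgG1 PC, 4.38, 4.21 and 4.29 in IgE GC cells, 4.07, 3.95 and 4.29 in GFP+ IgG1 GC cells, and 4.64, 4.38 and 4.47 in naive cells, and Pdia5 had values of 5.30, 5.04, 4.88 and 5.14 in IgE PC, 5.16 and 5.13 in IgG1 PC, 4.99, 4.66 and 4.98 in IgE GC cells, 4.88, 4.86 and 4.94 in GFP+ IgG1 GC cells, and 4.90, 4.82 and 5.47 in naive cells.

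Ckap4 (CLIMP-63), which spaces the membranes of ER sheets, had values of 10.51, 10.50, 10.65 and 10.32 in IgE PC, 10.38 and 9.98 in IgG1 PC, 6.76, 6.15 and 7.40 in IgE GC cells, 6.28, 6.73 and 6.22 in GFP+ IgG1 GC cells, and 6.76, 6.81 and 6.47 in naive cells. It was higher in PC by 3.72 ± 0.24 for IgE and 3.77 ± 0.29 for IgG1, with GC and naive values interleaved. Ufm1, a ubiquitin-like modifier attached to ribosomes at the ER, was higher in PC by 1.74 ± 0.38 for IgE and 2.49 ± 0.46 for IgG1.

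All 12 ERAD genes were higher in IgE PC (median 2.25) and 11 of 12 in IgG1 PC (median 2.33). Derl3, a derlin of the retrotranslocation machinery that is enriched in secretory cells, had values of 11.88, 11.80, 11.57 and 11.96 in IgE PC, 11.33 and 10.93 in IgG1 PC, 7.83, 7.51 and 8.92 in IgE GC cells, 7.14, 7.35 and 7.88 in GFP+ IgG1 GC cells, and 6.17, 7.24 and 6.60 in naive cells. The PC minus GC difference was 3.72 ± 0.30 for IgE (27th of 12098 genes) and 3.68 ± 0.36 for IgG1 (36th). Its relatives differed less, Derl1 by 1.33 for IgE and 1.43 for IgG1, and Derl2 by 1.18 for IgE and 0.97 for IgG1.

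Of the Edem proteins, which take part in mannose trimming, Edem2 differed by 3.06 for IgE and 3.09 for IgG1 and Edem3 by 1.77 for IgE and 2.30 for IgG1. Edem1 had values of 11.66, 11.75, 11.43 and 11.37 in IgE PC, 11.56 and 11.11 in IgG1 PC, 9.02, 9.25 and 9.08 in IgE GC cells, 8.95, 9.07 and 8.62 in GFP+ IgG1 GC cells, and 7.20, 7.21 and 8.12 in naive cells, and was higher in PC by 2.43 ± 0.21 for IgE and 2.46 ± 0.26 for IgG1. Os9 and Erlec1, the lectins that read trimmed glycans, were higher by 2.45 and 2.28 for IgE, and by 2.76 and 2.45 for IgG1.

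The 2 core subunits of the ligase complex did not move to the same extent. Sel1l, the membrane adaptor, had values of 10.87, 10.45, 10.71 and 10.74 in IgE PC, 10.74 and 9.87 in IgG1 PC, 8.11, 8.09 and 8.29 in IgE GC cells, 8.17, 7.96 and 7.68 in GFP+ IgG1 GC cells, and 7.75, 7.35 and 6.99 in naive cells, and was higher in PC by 2.53 ± 0.21 for IgE and 2.37 ± 0.26 for IgG1. Syvn1 (HRD1), the ligase itself, had values of 11.59, 11.65, 11.24 and 11.61 in IgE PC, 11.25 and 10.94 in IgG1 PC, 11.03, 10.74 and 10.93 in IgE GC cells, 10.97, 10.85 and 10.90 in GFP+ IgG1 GC cells, and 10.20, 10.46 and 10.55 in naive cells. The Syvn1 difference was 0.62 (SE 0.15, adjusted p = 0.00453) for IgE and 0.18 (SE 0.18, adjusted p = 0.514) for IgG1, which was not called. Herpud1, a ubiquitin-like-domain protein that binds the complex, had values of 11.89, 12.09, 11.33 and 11.99 in IgE PC, 10.99 and 10.83 in IgG1 PC, 9.88, 9.97 and 10.39 in IgE GC cells, 9.64, 10.28 and 9.84 in GFP+ IgG1 GC cells, and 8.66, 9.29 and 9.09 in naive cells. It was higher in PC by 1.74 ± 0.21 for IgE and 0.99 ± 0.25 for IgG1, and Vimp, a selenoprotein partner of derlins, by 2.23 for IgE and 2.16 for IgG1.

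**Figure D3:**
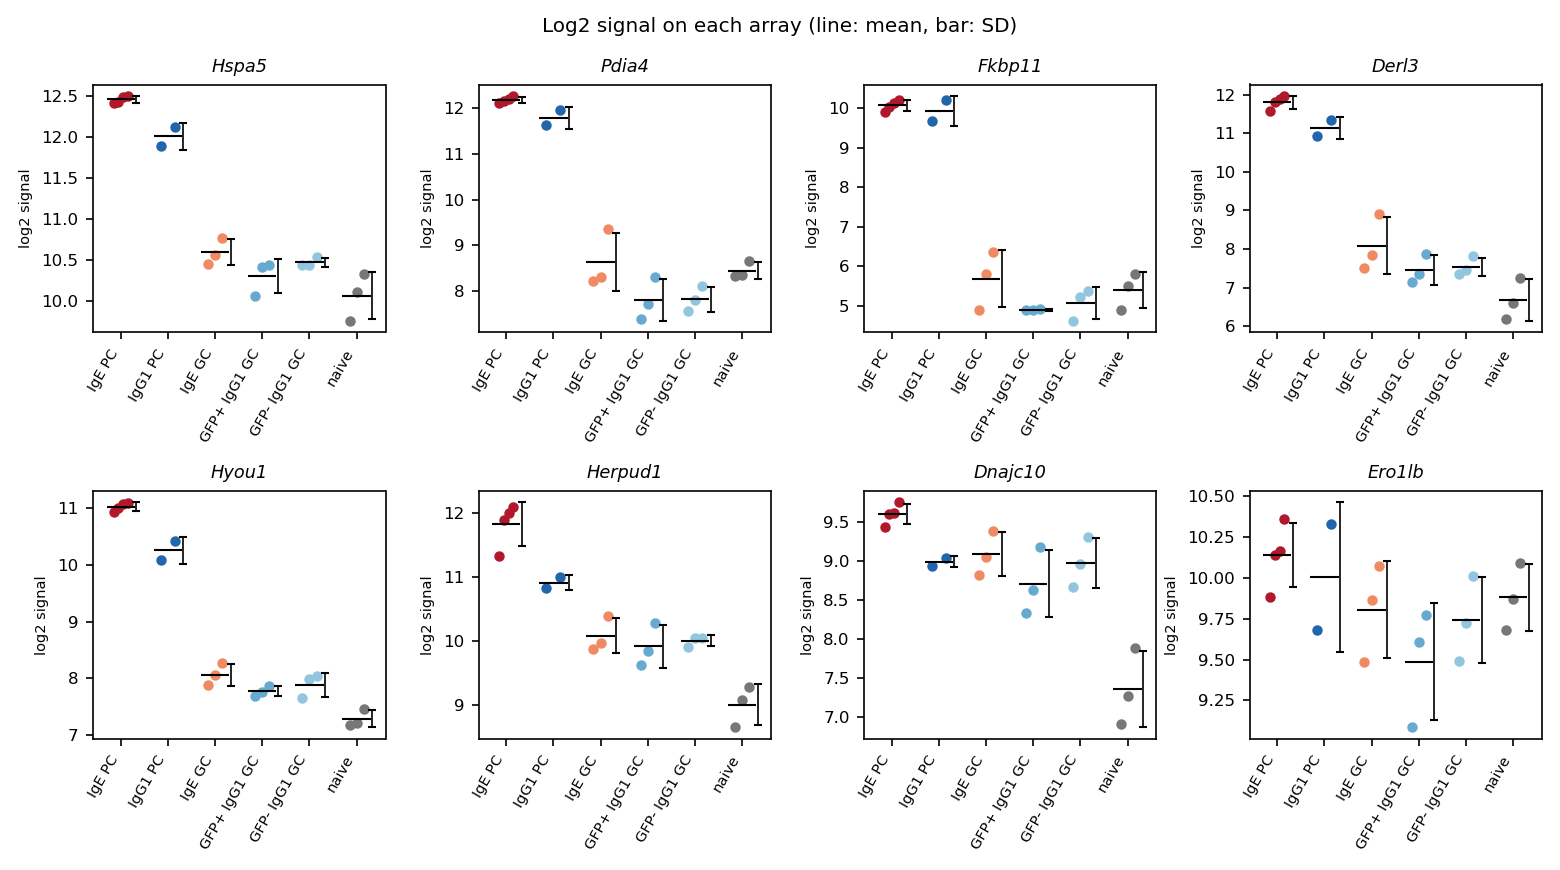
Log2 RMA value of 8 members on each array of the first experiment, one panel per gene, with a point per array, a line at the group mean and a bar of 1 SD. Hspa5, Pdia4, Fkbp11, Derl3, Hyou1 and Herpud1 separate PC from all other groups, Dnajc10 steps up between naive and GC cells, and the groups of Ero1lb overlap.

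Other cell types that the gates could hold were read from marker lists. The summed linear signal of 8 macrophage and dendritic cell markers was 557 to 737 in IgE PC and 326 to 631 in IgG1 PC, against 318 to 362 in IgE GC cells and 272 to 365 in GFP+ IgG1 GC cells. Of its 5 tested genes Cd68 was called higher in IgE PC and none in IgG1 PC, and the scale has no 0 at which a marker could stand. The summed signal of 7 neutrophil and eosinophil markers was 207 to 445 in IgE PC and 310 to 336 in IgG1 PC, against 149 to 200 in IgE GC cells and 156 to 177 in GFP+ IgG1 GC cells. Of its 4 tested genes Prg2, an eosinophil granule protein gene, was called higher in PC, by 2.12 (SE 0.36, adjusted p = 0.000317) for IgE and 2.62 (SE 0.44, adjusted p = 0.000284) for IgG1. Prg2 had values of 6.02, 6.07, 7.15 and 8.14 in IgE PC, 7.23 and 7.47 in IgG1 PC, 4.80, 4.56 and 4.82 in IgE GC cells, and 4.40, 4.90 and 4.88 in GFP+ IgG1 GC cells. The eosinophil gene Siglecf, at 0.09 (SE 0.13, adjusted p = 0.723) for IgE and 0.26 (SE 0.15, adjusted p = 0.261) for IgG1, was not called, and Epx, too dim to be tested, had values of 3.95, 4.27, 4.47 and 4.34 in IgE PC, 4.23 and 4.13 in IgG1 PC, 4.17, 4.13 and 4.26 in IgE GC cells, and 4.08, 4.13 and 4.28 in GFP+ IgG1 GC cells. The summed signal of 5 cycling genes was 3451 to 4599 in IgE PC and 3734 to 4397 in IgG1 PC, against 5405 to 6574 in IgE GC cells and 4854 to 5751 in GFP+ IgG1 GC cells. The 9 T cell markers summed to 323 to 358 in IgE PC and 462 to 551 in IgG1 PC. In GC cells their sum was 326 to 600 for IgE and 355 to 440 for GFP+ IgG1. For 5 natural killer markers the sum was 105 to 135 in IgE PC and 112 to 255 in IgG1 PC. It was 83 to 104 in IgE GC cells and 84 to 96 in GFP+ IgG1 GC cells. The part of all these markers in the members' differences, between stages or between isotypes, was not tested.

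The rest of the secretory pathway was read from lists of genes outside the 41. Of genes of the translocon and signal peptide processing, 20 of 22 tested were higher in IgE PC than in IgE GC cells (median 1.69) and 19 of 22 were higher in IgG1 PC than in GFP+ IgG1 GC cells (1.65), none lower; among them Srprb, a subunit of the signal recognition particle receptor, differed by 3.04 for IgE and 3.32 for IgG1. Of genes of N-glycosylation, 21 of 26 were higher in each isotype (medians 1.75 for IgE and 1.64 for IgG1), such as the oligosaccharyltransferase subunit Ddost at 2.76 for IgE and 2.62 for IgG1. Of genes of transport between ER and Golgi, 24 of 27 were higher in IgE PC (1.47) and 23 of 27 in IgG1 PC (1.23). The COPII coat subunit Sec24d differed by 4.14 for IgE and 4.69 for IgG1, and the cargo receptor Lman1 by 2.90 for IgE and 2.84 for IgG1.

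The cytosolic and membrane partners of degradation and UFM1 attachment differed less, with 12 of 16 higher for IgE (median 0.99) and 8 of 16 for IgG1 (0.81). Of the sensors and factors of the unfolded protein response, 7 of 11 were higher for IgE (1.00) and 6 of 11 for IgG1 (0.79). Ern1, the sensor that splices Xbp1 mRNA, differed by 4.54 for IgE and 4.75 for IgG1, Creb3l2, a membrane-bound transcription factor, by 4.63 for IgE and 5.00 for IgG1, and Xbp1 itself by 1.93 for IgE and 2.79 for IgG1. Of 24 tested chaperones of the cytosol and mitochondria none was higher in PC. In IgE PC 9 were lower (median -0.46), against 13.4% of all genes tested called lower. In IgG1 PC 4 were lower (median -0.56), near the 13.1% of all genes called lower. Among these, Hspa4, an exchange factor of cytosolic HSP70, differed by -0.91 for IgE.

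The second question was in which groups the members differed from naive cells. Relative to naive cells, 38 of 39 tested members were higher in IgE PC (23% of all genes tested were called higher) and 38 of 39 in IgG1 PC (17.1%). The median difference was 2.85 for IgE PC and 2.76 for IgG1 PC, against -0.01 and 0.01 over all genes tested. Txndc5 had the widest difference, 5.34 for IgE PC and 4.59 for IgG1 PC. Derl3 differed by 5.13 for IgE PC and 4.46 for IgG1 PC, Fkbp11 by 4.66 for IgE PC and 4.53 for IgG1 PC, and Edem1 by 4.04 for IgE PC and 3.83 for IgG1 PC. Ero1lb was not called in either (differences of 0.26 for IgE PC and 0.12 for IgG1 PC). Relative to naive cells again, 24 of 39 were higher in IgE GC cells (19.3% of all genes) and 15 of 39 in GFP+ IgG1 GC cells (16.8%), none lower. The median was 0.65 for IgE GC cells and 0.49 for GFP+ IgG1 GC cells, against 0.06 and 0.02 over all genes tested. These 4 comparisons share the naive arrays.

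At the GC stage the members were uneven. Genes of disulfide formation were called in 6 of 8 tests in each isotype. The HSP70/HSP90 system had 7 of 12 called for IgE and 5 of 12 for IgG1, and ERAD had 8 of 12 for IgE and 3 of 12 for IgG1. Of the prolyl isomerases 1 of 3 was called for IgE and none for IgG1. Over all genes tested 19.3% were called higher for IgE and 16.8% for GFP+ IgG1. The IgG1 counts of ERAD and of the prolyl isomerases lay near that share. Each role holds few genes, and the whole counts shift with the arrays used, as given below. The largest GC difference from naive was that of Txndc5, at 2.86 ± 0.29 for IgE and 2.12 ± 0.29 for IgG1. For IgE it was followed by Dnajc10 (1.73), Edem1 (1.61), P4hb (1.43), Derl3 (1.41), Txndc11 (1.37), Ero1l (1.35), Sdf2l1 (1.21), Ufm1 (1.19) and Mzb1 (1.13). For GFP+ IgG1 the next were Edem1 (1.37), Dnajc10 (1.36), Ero1l (1.22), Ufm1 (1.22), P4hb (1.21), Sdf2l1 (1.01), Txndc11 (0.97), Herpud1 (0.91) and Pdia6 (0.79). Derl3, at 0.78, was not called for IgG1. Ufm1 was called in only 2 of 12 alternatives in each isotype. Its calls were lost, for example, without naive replicate 1 (0.54 for IgE and 0.58 for IgG1), and its difference for IgE turned to -0.11 when averaged with its dim second probe set. For GFP+ IgG1, Pdia6 was called in 4 of 12 alternatives, Sdf2l1 in 6 and Herpud1 in 9. The other members named here for either isotype were called in 11 or 12 of 12. Several of the genes that separated PC most widely were not called at this stage: the difference from naive was 0.28 for IgE and -0.51 for IgG1 in Fkbp11, 0.09 for IgE and -0.27 for IgG1 in Ckap4, and -0.24 for IgE and -0.33 for IgG1 in Edem2. For Pdia4 it was 0.19 for IgE and -0.64 for IgG1, and the IgG1 value was called lower under quantile normalization (-0.86, adjusted p = 0.0316) and without GFP+ IgG1 GC replicate 1 (-0.89, adjusted p = 0.0394).

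The GC minus naive counts depend on a few arrays and on the variance used. Without IgE GC replicate 3 the IgE count was 15, and the GFP+ IgG1 count was 8 without GFP+ IgG1 GC replicate 1 and 6 without replicate 2. Without naive replicate 1 and GFP+ IgG1 GC replicate 3, which stood apart, they were 22 for IgE and 13 for GFP+ IgG1. With only the 2 groups fitted the counts were 12 for IgE and 4 for GFP+ IgG1. Under quantile normalization they were 15 for IgE and 9 for GFP+ IgG1, of which 7 were higher and 2, Sil1 and Pdia4, lower. Naive and GC cells also differed in marker lists: the summed linear signal of 5 cycling genes was 5405 to 6574 in IgE GC cells and 4854 to 5751 in GFP+ IgG1 GC cells, against 167 to 195 in naive cells. That of the 8 macrophage and dendritic cell markers was 318 to 362 in IgE GC cells and 272 to 365 in GFP+ IgG1 GC cells, against 563 to 1012 in naive cells. Of 7 tested T cell markers 2 were lower in IgE GC cells and 4 in GFP+ IgG1 GC cells than in naive cells. Of 5 tested stromal and endothelial markers Pecam1 alone was called, with differences from naive of -2.38 in IgE GC cells and -2.28 in GFP+ IgG1 GC cells. Cdh5 of the same list averaged 4.83 in naive, 5.00 in IgE GC and 5.12 in GFP+ IgG1 GC cells. Kdr averaged 3.71, 3.61 and 3.61 in the same groups, so Pecam1 does not stand for the list. The part of these marker differences in the result was not tested.

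As a description, the GC step was set against the whole distance from naive cells to PC. All samples were taken on day 10, so these steps are differences between groups and do not follow the same cells over time. In IgE cells the GC minus naive difference was a median of 24.6% of the PC minus naive difference, over the 38 members whose total exceeded 1. In IgG1 cells it was 18.6% over 37 such members. Over the 41 members the PC step was the larger in 39 for IgE and 38 for IgG1. For Dnajc10 the GC minus naive difference was most of the PC minus naive difference, 77.1% in IgE and 82.8% in IgG1. Among members with a total above 1, the others above 50% were Txndc5 in IgE cells (53.6%) and Ero1l in IgG1 cells (50.1%). Syvn1 in IgG1 cells, with a total of 0.69, stood at 73.2%.

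**Figure D4:**
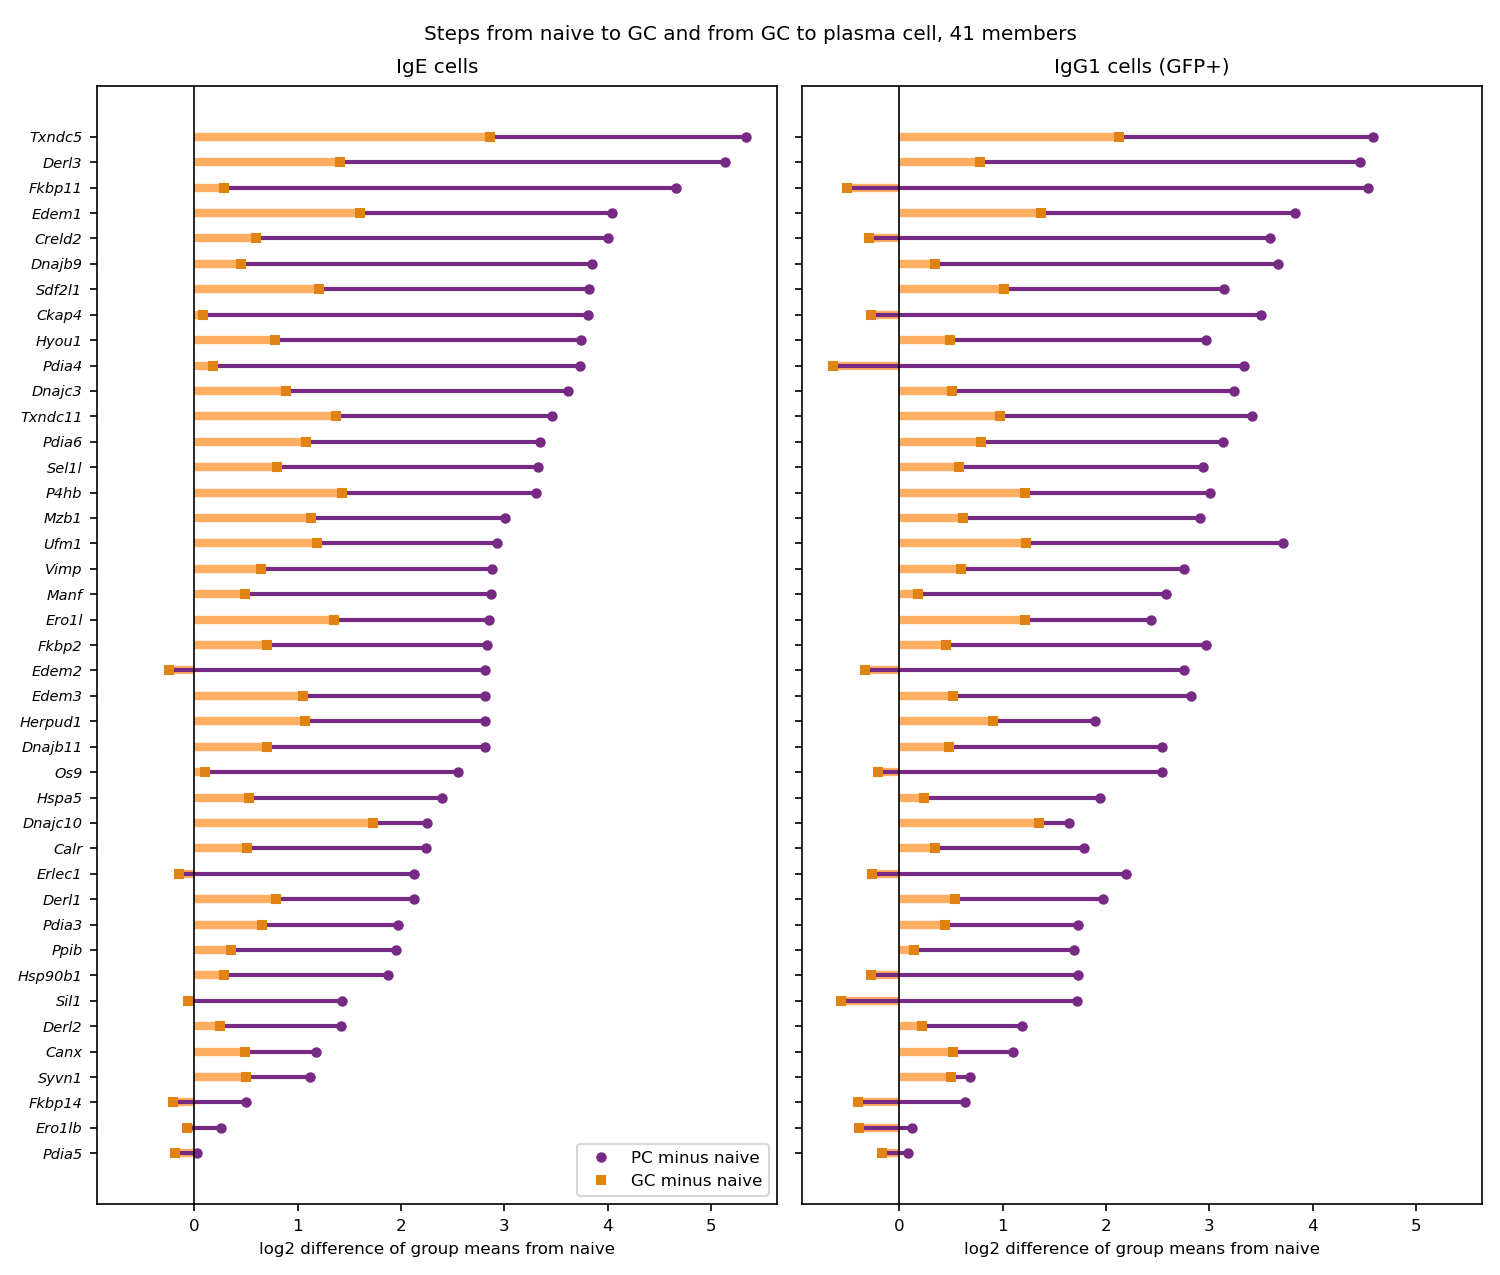
Log2 difference of group means from naive cells for the 41 members, in IgE cells (left) and GFP+ IgG1 cells (right): circles are PC minus naive, squares are GC minus naive, and the thin line between them is the PC minus GC step. In most rows the square lies nearer to 0 than to the circle; Txndc5 has a wide GC step and Dnajc10 a short PC step.

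The third question was whether IgE and IgG1 cells differ in this machinery at the same stage. Between IgE PC and IgG1 PC, 1 of 39 tested members was called, against 0.959% of all genes tested called in either direction (116 genes). That member was Hyou1, which was higher in IgE PC by 0.77 (SE 0.17, adjusted p = 0.0395), a 1.7-fold difference, with all 4 IgE arrays above both IgG1 arrays in the values given above. The call was made in 3 of 11 alternatives, with adjusted p between 0.0326 and 0.295, and it was lost under quantile normalization, with only the 2 groups fitted, with replicates as blocks, and without any one of the IgE PC arrays or IgG1 PC replicate 2.

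The 5 members with the next smallest p were also higher in IgE PC without being called: Herpud1 by 0.91 (SE 0.24, adjusted p = 0.0841), Calr by 0.45 (SE 0.17, adjusted p = 0.249), Syvn1 by 0.43 (SE 0.17, adjusted p = 0.266), Hspa5 by 0.45 (SE 0.17, adjusted p = 0.269) and Txndc5 by 0.75 (SE 0.31, adjusted p = 0.308). Herpud1 passed the threshold when IgE PC replicate 3 was left out (adjusted p = 0.0397). The difference was above 0 for 34 of 39 members, with a median of 0.24 against 0.02 over all genes tested, and at an unadjusted p below 0.05 there were 7 members and 1575 of all genes. For 20 of 39 members every IgE PC array lay above both IgG1 PC arrays, against 12.4% of all genes tested. Of the 2 IgG1 PC arrays, replicate 1 was the higher for 32 of the 41 members and for 50.4% of all genes. The widest difference in the other direction was that of Ufm1, at -0.79 (SE 0.43, adjusted p = 0.48).

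Pdia4 was measured by a second probe set that did not give the same answer. That probe set had values of 10.68, 10.07, 9.05 and 11.34 in IgE PC, 7.98 and 7.26 in IgG1 PC, 4.78, 4.71 and 4.85 in IgE GC cells, and 5.14, 4.14 and 4.63 in GFP+ IgG1 GC cells. Every IgE PC array was above both IgG1 PC arrays, and the difference of 2.67 (SE 0.45) had an adjusted p of 0.0079 over the 13175 probe sets fitted. The brighter probe set, used above, gave 0.39 (SE 0.29, adjusted p = 0.621). The parts of the transcript that the probe sets read are not given in the sources used here, and which probe set reports the transcript better was not tested. With the mean of both probe sets Pdia4 passed the threshold, at a difference of 1.53 (adjusted p = 0.0226).

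A further test compared the PC minus GC difference itself. No member was called in the limma test of the interaction, against 0.0909% of all genes tested (11 genes), and the members' median was 0.01. At an unadjusted p below 0.05 there were 1 member and 822 genes. The member was Herpud1, whose PC minus GC difference was larger in IgE by 0.75 (SE 0.33, adjusted p = 0.696). The widest values on the other side were Sil1, at -0.79 ± 0.39, and Ufm1, at -0.75 ± 0.60. The median of 0.01 does not show that the isotypes act alike. The second Pdia4 probe set differed in this test too: its PC minus GC difference was 5.51 for IgE and 2.98 for IgG1, an interaction of 2.52 (SE 0.62, adjusted p = 0.257), against -0.44 ± 0.40 for the brighter one. The 95% interval of the interaction for Hspa5, for example, was -0.35 to 0.67.

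Between IgE GC cells and GFP+ IgG1 GC cells no member was called with limma, and no gene of the 12098 was (0%). At an unadjusted p below 0.05 there were 6 members and 264 genes. The difference was above 0 for 36 of 39 members, with a median of 0.26 against 0.03 over all genes tested, and in 9 of 39 members every IgE GC array lay above every GFP+ IgG1 GC array (4.96% of all genes). Among the widest were Creld2 at 0.90 (SE 0.35, adjusted p = 0.9997), Pdia4 at 0.83 (SE 0.27, adjusted p = 0.9997), Fkbp11 at 0.79 (SE 0.31, adjusted p = 0.9997) and Txndc5 at 0.74 (SE 0.29, adjusted p = 0.9997).

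The IgE GC arrays were not equal in this respect. Replicate 3 was the highest of its group for 28 of 41 members, against 31.9% of all genes: Pdia4 read 9.36 there and 8.23 and 8.31 in the others, Creld2 9.02 against 7.57 and 7.89, and Derl3 8.92 against 7.83 and 7.51. The same array had higher values of plasma cell markers, with Prdm1 at 6.49 against 5.35 and 4.74 and Irf4 at 7.80 against 6.98 and 6.98, and the summed linear signal of the 7 plasma cell markers was 4212 to 5682 in IgE GC cells against 3040 to 3671 in GFP+ IgG1 GC cells. In the comparison group, GFP+ IgG1 GC replicate 3 was the lowest for 27 of 41 members (47.2% of all genes). The members' median was 0.20 without the IgE array and 0.18 without the IgG1 array. The part of these arrays' cell makeup in the difference was not tested.

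Within IgG1 GC cells the GFP label made no called difference. GFP+ minus GFP- gave no called member and no called gene in either experiment with limma (0% in both), with 0 members and 265 genes at an unadjusted p below 0.05 in the unseparated cells, and 1 member and 519 genes over the zones. In the unseparated cells 35 of 39 members were below 0, with a median of -0.11 against -0.02 over all genes tested. There GFP+ IgG1 GC replicate 3, which stood apart, was the lowest of its group for 27 of 41 members (47.2% of all genes). Its part in the difference was not tested. Over the zones 19 of 38 members were above 0, and the single member at an unadjusted p below 0.05 was Derl1, at 0.30 (SE 0.13, adjusted p = 0.941). The widest differences in unseparated cells were Creld2, at -0.50 (SE 0.35, adjusted p = 0.9997), and Edem3, at -0.44 (SE 0.28, adjusted p = 0.9997). Hspa5 had values of 10.41, 10.44 and 10.06 in GFP+ IgG1 GC cells, and 10.53, 10.44 and 10.44 in GFP- IgG1 GC cells, which overlap, and so did Pdia4, with 8.30, 7.40 and 7.73 in GFP+ IgG1 GC cells, and 8.12, 7.57 and 7.80 in GFP- IgG1 GC cells.

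The last comparison was between the zones of the germinal centre, where cells divide and mutate in the dark zone and are selected in the light zone. Of 38 tested members 2 were higher in DZ than in LZ cells (3.92% of the 11050 genes tested were called higher) and 1 was lower (3% were called lower). The members' median was -0.02. The summed linear signal of 5 cycling genes was 4659 to 6625 in DZ cells against 2954 to 3879 in LZ cells, and its part in the 3 calls was not tested.

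Mzb1, the immunoglobulin cochaperone, was higher in DZ cells, with values of 10.89, 10.97 and 11.07 in GFP+ DZ cells, 11.11, 10.76 and 11.18 in GFP- DZ cells, 10.41, 10.46 and 10.83 in GFP+ LZ cells, and 10.32, 10.20 and 10.09 in GFP- LZ cells. The difference was 0.61 (SE 0.11, adjusted p = 0.00627), and the zones overlapped slightly. Txndc11, with its 2 UPRE cores, had values of 8.93, 9.19 and 9.27 in GFP+ DZ cells, 8.94, 9.12 and 9.18 in GFP- DZ cells, 8.27, 8.28 and 8.76 in GFP+ LZ cells, and 8.55, 8.66 and 8.46 in GFP- LZ cells. Every DZ array of Txndc11 lay above every LZ array, and the difference was 0.61 (SE 0.11, adjusted p = 0.00743). Derl3, which was so much higher in PC, was lower in DZ than in LZ cells, with values of 7.01, 6.80 and 7.46 in GFP+ DZ cells, 6.94, 7.35 and 7.33 in GFP- DZ cells, 7.37, 7.62 and 7.89 in GFP+ LZ cells, and 7.97, 7.77 and 7.83 in GFP- LZ cells. Its difference was -0.59 (SE 0.14, adjusted p = 0.0232), called in 11 of 16 alternatives with adjusted p between 0.0106 and 0.0591. That call was lost without GFP+ DZ replicate 1, GFP- DZ replicate 1, GFP- LZ replicate 1, GFP+ LZ replicate 2 or GFP+ LZ replicate 3, whereas Mzb1 and Txndc11 were called in 16 of 16.

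Near the threshold were Pdia4, at -0.48 (SE 0.14, adjusted p = 0.0551), and Ufm1, at 0.58 (SE 0.19, adjusted p = 0.1). Pdia4 was called in 2 of 16 alternatives: under quantile normalization (adjusted p = 0.0278) and without GFP+ DZ replicate 1 (adjusted p = 0.0130). Over the 16 its difference ran from -0.59 to -0.14, with adjusted p up to 0.726. Ufm1 was called in 1 of 16, with the replicate number as a block (adjusted p = 0.0287), and its adjusted p ran up to 0.190. Txndc5 differed by 0.29 (SE 0.11, adjusted p = 0.161), and Hspa5, at -0.23 (SE 0.12, adjusted p = 0.277), and Hsp90b1, at -0.15 (SE 0.10, adjusted p = 0.42), were not called. Of the factors of the unfolded protein response, the sensor kinase Eif2ak3 (PERK) was higher in DZ cells by 1.00, Xbp1 was higher by 0.39, and Ddit3 (CHOP) was lower, at -0.67. They were named for the size of their differences, from a longer list, and do not describe the response as a whole.

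**Figure D5:**
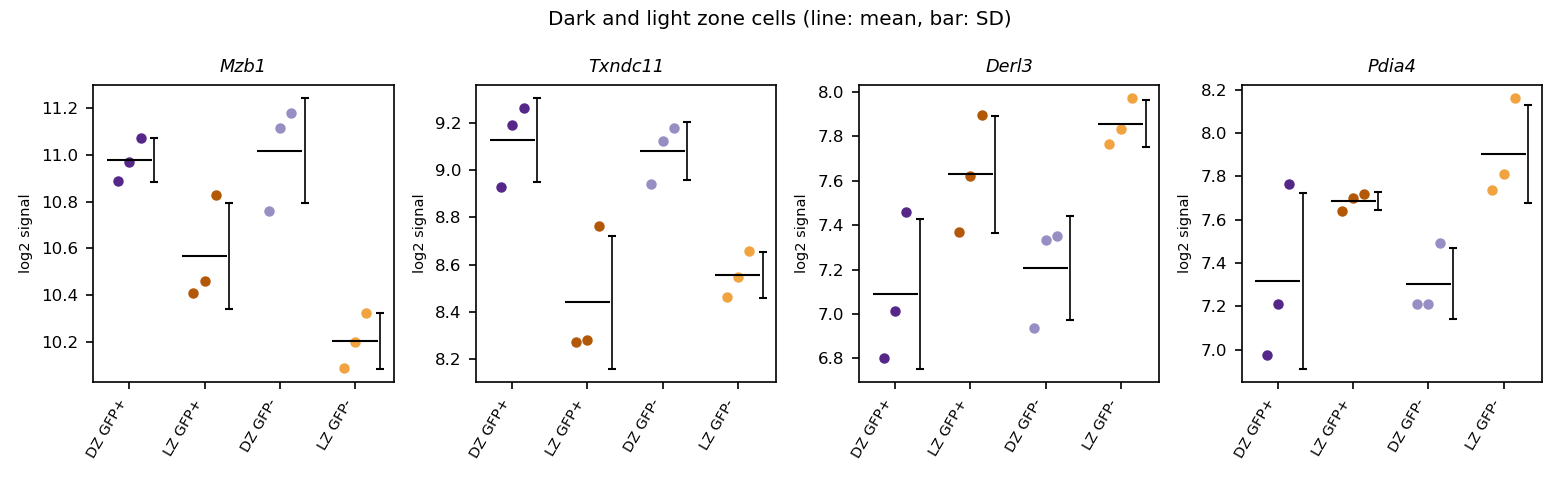
Log2 RMA value of Mzb1, Txndc11, Derl3 and Pdia4 on each of the 12 arrays of the second experiment, one panel per gene, by zone and GFP, with a line at each group mean and a bar of 1 SD. Txndc11 separates all DZ from all LZ arrays, and Derl3 and Pdia4 lean the other way with overlap.

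The zone difference did not depend detectably on GFP: no member and no gene (0%) was called in the limma test of the zone interaction, with 5 members and 543 genes at an unadjusted p below 0.05. These 5 were Hyou1, P4hb, Derl2, Ckap4 and Os9. Hyou1 had values of 7.44, 6.76 and 7.29 in GFP+ DZ cells, 7.82, 7.34 and 7.92 in GFP- DZ cells, 7.98, 8.04 and 7.89 in GFP+ LZ cells, and 7.56, 7.45 and 7.53 in GFP- LZ cells. In GFP+ cells all DZ values of Hyou1 were below all LZ values and in GFP- cells the zones overlapped, with an interaction of -0.99 (SE 0.27, adjusted p = 0.986). P4hb had an interaction of -0.71 (SE 0.19, adjusted p = 0.986). Derl2, at -0.60, and Os9, at -0.46, had the same sign, and Ckap4, at 0.47, the opposite one.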

How the data were processed

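The authors deposited log2 expression values for 34760 probe sets of an Affymetrix Mouse Gene ST array on 30 arrays, which the submitters' processing notes credit to RMA under R 2.15.2. RNA was isolated with PicoPure and amplified with the NuGEN SPIA kit, per the labels' protocols; such amplification can compress or distort differences. No source used here says if the experiments were normalized together. The median value of an array ranged from 5.28 to 5.47, and within groups the arrays correlated at 0.936 to 0.989 over all genes. The number of arrays, 2 to 4 a group, limits the precision.

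Probe sets were named from the platform annotation: 21640 had a single symbol, 1321 several and 11799 none. The brightest single-symbol probe set stood for each of 19937 genes. Genes above the array median on at least 2 arrays (first experiment) or 3 arrays (second) were tested, 12098 and 11050 genes. limma 3.58.1 (R 4.3.3; lmFit and eBayes over all arrays of an experiment) gave 13 comparisons, with Benjamini-Hochberg adjustment over all genes tested and a threshold of 0.05. The limma steps were tested on simulated data. Motifs and figures used python 3.11.15 and matplotlib 3.10.9, and the promoter table is RefSeq's.

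For 12 core members and some others the values are given on each PC, IgE GC, GFP+ IgG1 GC and naive array. Values on GFP- IgG1 GC and zone arrays are given for fewer members. Per comparison up to the 10 largest called differences are named, and for isotype, GFP and zone comparisons also up to 6 of the smallest p. The members and lists were chosen with earlier results of these data known. Alternatives were quantile normalization, no filter, the mean of a gene's probe sets, fits of only the groups compared, the replicate number as a block, and leaving out each array. The arrays that stood apart were left out and each probe set fitted on its own as alternatives chosen after seeing the data. All differences, errors and p-values reported come from fits without a replicate block, also where a pairing is possible. The criterion for reading same-numbered samples as paired was that all 3 pairs' deviations correlated above 0.1. It was met only between GFP+ and GFP- unseparated IgG1 GC cells (correlations 0.154, 0.109 and 0.116 over genes). There the block, fitted as an alternative, changed no call.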

Additional observations from a re-analysis of the deposited data

Results flagged for a closer look

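In IgE PC, the only group of 4 arrays, replicate 3 lay apart for 2 of the 41 members by Dixon's criterion. Syvn1, the ERAD ligase, read 11.24 on that array and at least 11.59 on the others, and Os9, an ERAD lectin, read 9.64 against at least 10.02. Chance gives about 1 such sample in 20 groups, and 41 genes were examined in the same 4 arrays.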

How the results depend on the processing

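Most counts of called members kept to within 1.5 times under the alternatives. For IgE PC minus IgE GC they were 36 to 37 when single arrays were left out and 37 to 38 otherwise, for IgG1 34 to 35 and 34 to 36, and in the isotype interaction, IgE GC against GFP+ IgG1 GC and both GFP comparisons 0 throughout. For DZ minus LZ they were 2 to 3 without single arrays and 3 to 4 otherwise, 4 with quantile normalization and 4 with the replicate block. Between IgE PC and IgG1 PC the count was 0 with quantile normalization, 0 with only the groups compared, 0 with the replicate block, 2 with the mean of probe sets, and 0 to 1 without single arrays. For IgE GC minus naive it was 15 with quantile normalization, 12 with only the groups compared and 15 to 24 without single arrays. For GFP+ IgG1 GC minus naive it was 9, 4 and 6 to 18 under the same settings. Fits of only the groups compared use fewer arrays; the cause of the other changes was not tested. With the mean of probe sets Ufm1, whose second probe set is dim, turned to -0.11 for IgE GC minus naive and -0.12 for GFP+ minus GFP- over the zones. Of 1316 values of named members under alternatives, 1257 kept direction and side of the threshold, 53 lost the call, 4 gained it and 2 reversed.

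Over all genes, calls between IgE PC and IgG1 PC numbered 116, but 0 with only the groups compared, 72 with the replicate block and 253 without IgG1 PC replicate 1. With only the groups compared, calls were 2037 instead of 3230 for IgE GC minus naive, 1527 instead of 2813 for GFP+ IgG1 GC minus naive and 1670 instead of 3540 for IgG1 PC minus naive. Quantile normalization moved the split of higher and lower calls to 1836 and 1113 (against 2335 and 895) for IgE GC minus naive, to 1735 and 991 (against 2035 and 778) for GFP+ IgG1 GC minus naive, to 2378 and 2140 (against 2779 and 1701) for IgE PC minus naive and to 356 and 410 (against 433 and 331) for DZ minus LZ. By the criterion above, the replicate numbers pair only the unseparated GFP+ and GFP- IgG1 GC cells. For other groups the correlations of deviations were from -0.110 to 0.222, and between the zone groups from 0.0017 to 0.124. Falling short of the criterion does not show that same-numbered samples were unpaired.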
